A study of Mus musculus with 12 samples.

Results

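Interferon-stimulated genes are the genes that cells switch on when type I or type II interferon reaches its receptor. A list of 43 of them was followed here in macrophages grown from mouse bone marrow, across a deletion of Stk11 and a treatment with IL-4. The members were chosen by gene name, as rows of the deposited count table whose symbol is on the list, and the list was drawn up with earlier results of these data known. The table held 42 of the 43 among 13715 genes, and Iigp1 was not analysed here.

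The cells were differentiated for 7 days in M-CSF at 40 ng/ml, the growth factor that drives macrophage formation, and all groups shared this step. One set of mice was wild type (WT) and the other was LysMCre Stk11 fl/fl (KO), in which Cre made from the lysozyme M locus of myeloid cells removes the floxed part of Stk11. Stk11 encodes LKB1, a kinase upstream of AMPK. Cultures of each genotype were left unstimulated (mock) or received IL-4 at 20 ng/ml for 24 h, which gave 4 groups of 3 libraries: WT mock, WT IL-4, KO mock and KO IL-4. The labels give no age, sex or strain of the mice and do not say whether WT mice carried the Cre or the floxed allele. Nor do they say that the 3 libraries of a group came from separate mice. The p-values therefore weigh each difference only against the spread among these libraries, which may in part be technical.

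Type I interferon binds the receptor chains IFNAR1 and IFNAR2, whose kinases phosphorylate STAT proteins, STAT2 among them. These join IRF9 and bind the interferon-stimulated response element (ISRE) in promoters. Interferon gamma acts through the gamma-activated site (GAS), and IRF1, itself a target of that route, then binds ISRE-like elements. IL-4 acts through STAT6, whose sites are close in form to the gamma-activated site. Macrophages keep a low level of interferon signalling without infection, which sets the resting level of many of these genes.

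Promoter stretches whose letters match such elements are shown for 6 members named below, and binding was not measured. They came from RefSeq promoter sequences (GRCm38.p6) that run from 250 bases before to 50 bases after a gene's start, and each stretch holds the match in capitals with 10 bases on either side. Irf1 is shown for a gamma-activated site (TTC and GAA with any 3 bases between), and the others for response elements (GAAA and GAAA with any 2 bases between), searched on both strands. The stretches, 5′ to 3′ on the gene's own strand, lay at chr11:53769914-53769942 (Irf1, plus strand), chr3:142620594-142620623 (Gbp2, plus strand), chr3:142559989-142560024 (Gbp3, plus strand), chr4:156200865-156200906 (Isg15, minus strand), chr19:34640775-34640823 (Ifit1, plus strand) and chr19:34583363-34583426 (Ifit3, plus strand).
Irf1: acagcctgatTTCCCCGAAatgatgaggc
Gbp2: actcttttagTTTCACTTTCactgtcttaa
Gbp3: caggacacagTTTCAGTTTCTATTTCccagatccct
Isg15: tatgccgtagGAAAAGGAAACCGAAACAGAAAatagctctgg
Ifit1: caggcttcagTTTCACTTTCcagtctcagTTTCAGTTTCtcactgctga
Ifit3: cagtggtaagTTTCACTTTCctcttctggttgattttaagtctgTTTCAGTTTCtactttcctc
The Isg15 run holds 3 overlapping matches, Gbp3 holds 2 overlapping matches, and Ifit1 and Ifit3 hold 2 separate ones. The Gbp2 gene model of the deposited table starts at 142620602, inside its stretch.

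Each library held 30651627 to 39136822 counts. Stk11 stood at 37.7 to 54.4 CPM (counts scaled to library size with TMM) in the 6 WT libraries and at 3.87 to 9.24 CPM in the 6 KO libraries. Lyz2, which carries the Cre insertion, was near 43 CPM in both KO 2 libraries and at 15362 CPM or more in every other library. Trim12a, Trim5 and Trim30d, which lie beside the member Trim30a, were at 0.341 CPM or less in the WT 3 and KO 1 libraries of both treatments and at 1.36 CPM or more in the others. All 7 macrophage markers listed (Csf1r, Adgre1, Itgam, Cd68, Fcgr1, Mertk and Lyz2) were measured. The 4 markers of IL-4 activation rose with IL-4 in both genotypes, Arg1 from 0.284 ± 0.0698 to 126 ± 6.43 CPM in WT (mean ± SD, n = 3 in each group throughout). Of the members' values, the KO IL-4 library 1 gave the highest of its group for 31 of 42 genes, and the WT IL-4 library 2 the lowest for 26.

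Per length, most members were low in unstimulated WT cells. Their median was 2.47 RPKM (reads scaled to gene length and library size), 10 of 42 were under 1 and 9 reached 10. Lgals3bp, a secreted galectin-binding glycoprotein, was highest at 128 ± 3.89 RPKM. Bst2 (tetherin, which holds budding virus at the cell surface) followed at 70.2 ± 4.78 RPKM. The receptor chain Ifnar2 at 48.4 ± 2.88 and Ifi207, a nuclear DNA-binding PYHIN protein, at 46.0 ± 2.57 RPKM did not differ beyond their spread. The lowest 4 of the 42 were Ifit1 at 0.341 ± 0.0840, Gbp7 at 0.318 ± 0.0779, Mx1 at 0.111 ± 0.0296 and Gbp5 at 0.0179 ± 0.00300 RPKM.

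**Figure D1:**
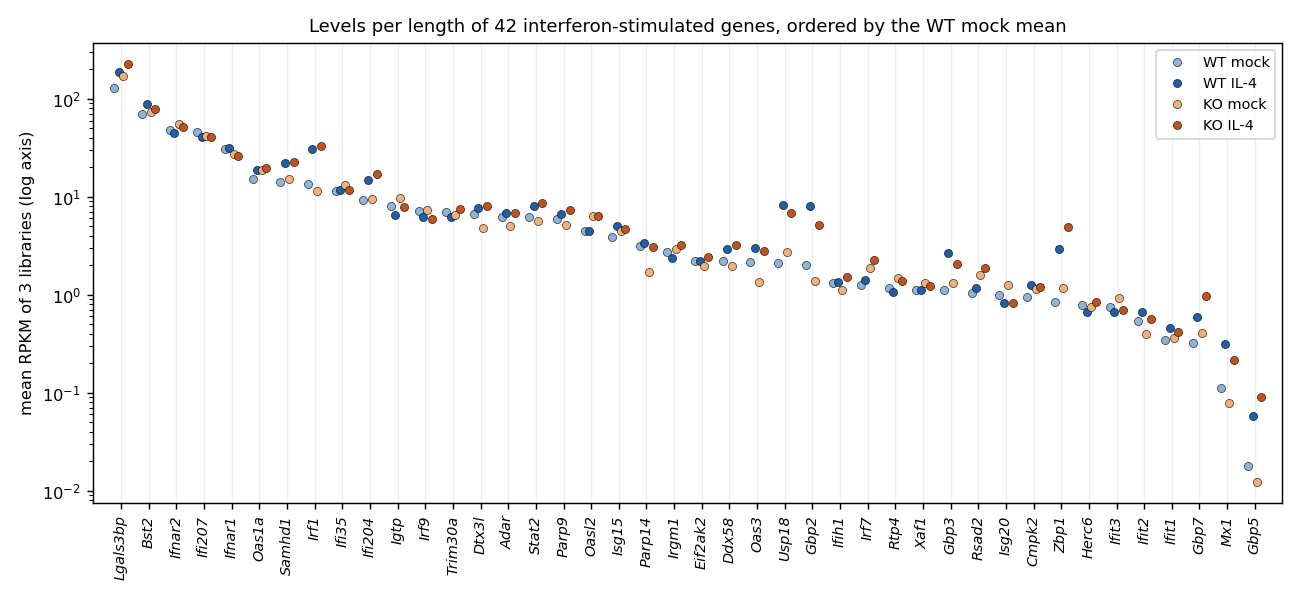
Mean RPKM of 3 libraries on a log axis for the 42 members, ordered by their level in WT mock, with 1 point for each of the 4 groups. Lgals3bp was highest and Gbp5 lowest in all 4 groups.

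Together the 42 members took 0.162% to 0.164% of the counts in WT mock libraries and 0.164% to 0.168% in KO mock libraries. With IL-4 they took 0.194% to 0.209% in WT and 0.216% to 0.226% in KO. Every IL-4 library was above every mock library. This sum is weighted to the abundant members, such as Lgals3bp.

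IL-4 raised more members than it lowered. In WT, 16 of 42 members rose and 2 fell at an edgeR adjusted p under 0.05, the threshold for every call below, against 13.6% of all 13715 genes higher and 13.0% lower. In KO, 19 rose and 3 fell, against 16.0% of all genes higher and 14.2% lower. The median log2 fold change of the members was 0.19 in WT and 0.29 in KO, beside -0.02 and 0.00418 over all genes, and the KO median was 0.18 without the WT 3 and KO 1 libraries. These 2 comparisons hold no library in common, and 14 members rose in both. The overlap of calls over all genes was not computed, so this count is not a result particular to the members. At least a 2-fold change was reached by 7 of the called members in WT and 8 in KO. The share of all genes called at 2-fold was not computed, so these counts are not particular to the members either.

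The loss of Stk11 went with changes in both directions. In mock cells 6 members were higher and 4 lower in KO than in WT, against 15.7% of all genes higher and 18.8% lower. With IL-4 8 members were higher and 1 lower, against 8.57% higher and 10.2% lower. These are 14.3% and 9.52% of the members in mock, near or under the background, and 19.0% and 2.38% with IL-4. Without KO IL-4 library 1, 4 members in place of 8 were higher with IL-4 (9.52%, against 6.96% of all genes). The median log2 fold change was 0.07 in mock and 0.10 with IL-4. The mock median was 0.13 without WT mock library 2, 0.04 without KO mock library 3, 0.11 without both KO 2 libraries, 0.00808 without the WT 3 and KO 1 libraries and 0.00914 with library size alone, and the median with IL-4 was 0.03 without WT IL-4 library 2. No called member reached a 2-fold difference, and the share of all genes that did was not computed. Rsad2, Irf7, Oasl2 and Lgals3bp were higher in KO in both treatments, and Gbp2 was lower in both. Of the 7 macrophage markers, Itgam (log2 -0.79), Adgre1 (-0.44) and Csf1r (-0.39) were lower and Cd68 (0.21) higher in KO in mock, and Itgam (-0.46) was lower and Mertk (0.65) higher with IL-4, and their part in these results was not tested. Markers of neutrophils and their precursors moved with genotype, 6 of 7 measured being higher in KO in mock and 5 of 7 with IL-4, and their part in these results was not tested. Their summed level was 99.7 to 229.5 CPM in WT mock and 369 to 835 in KO mock, and 47.6 to 135 in WT IL-4 and 176 to 573 in KO IL-4. The mature neutrophil marker Ly6g was at 0.856 CPM or less throughout. Of the erythroid and megakaryocyte markers 3 of 6 were measured, with a sum of 39.6 to 63.4 CPM in WT and 513 to 645 in KO, nearly all of it Pf4, while Klf1 was at 0.393 CPM or less. The 3 of 7 plasmacytoid dendritic cell markers measured summed to 2.36 CPM or less in every library. In such bulk samples fewer cells of a type and less RNA per cell cannot be told apart.

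**Figure D2:**
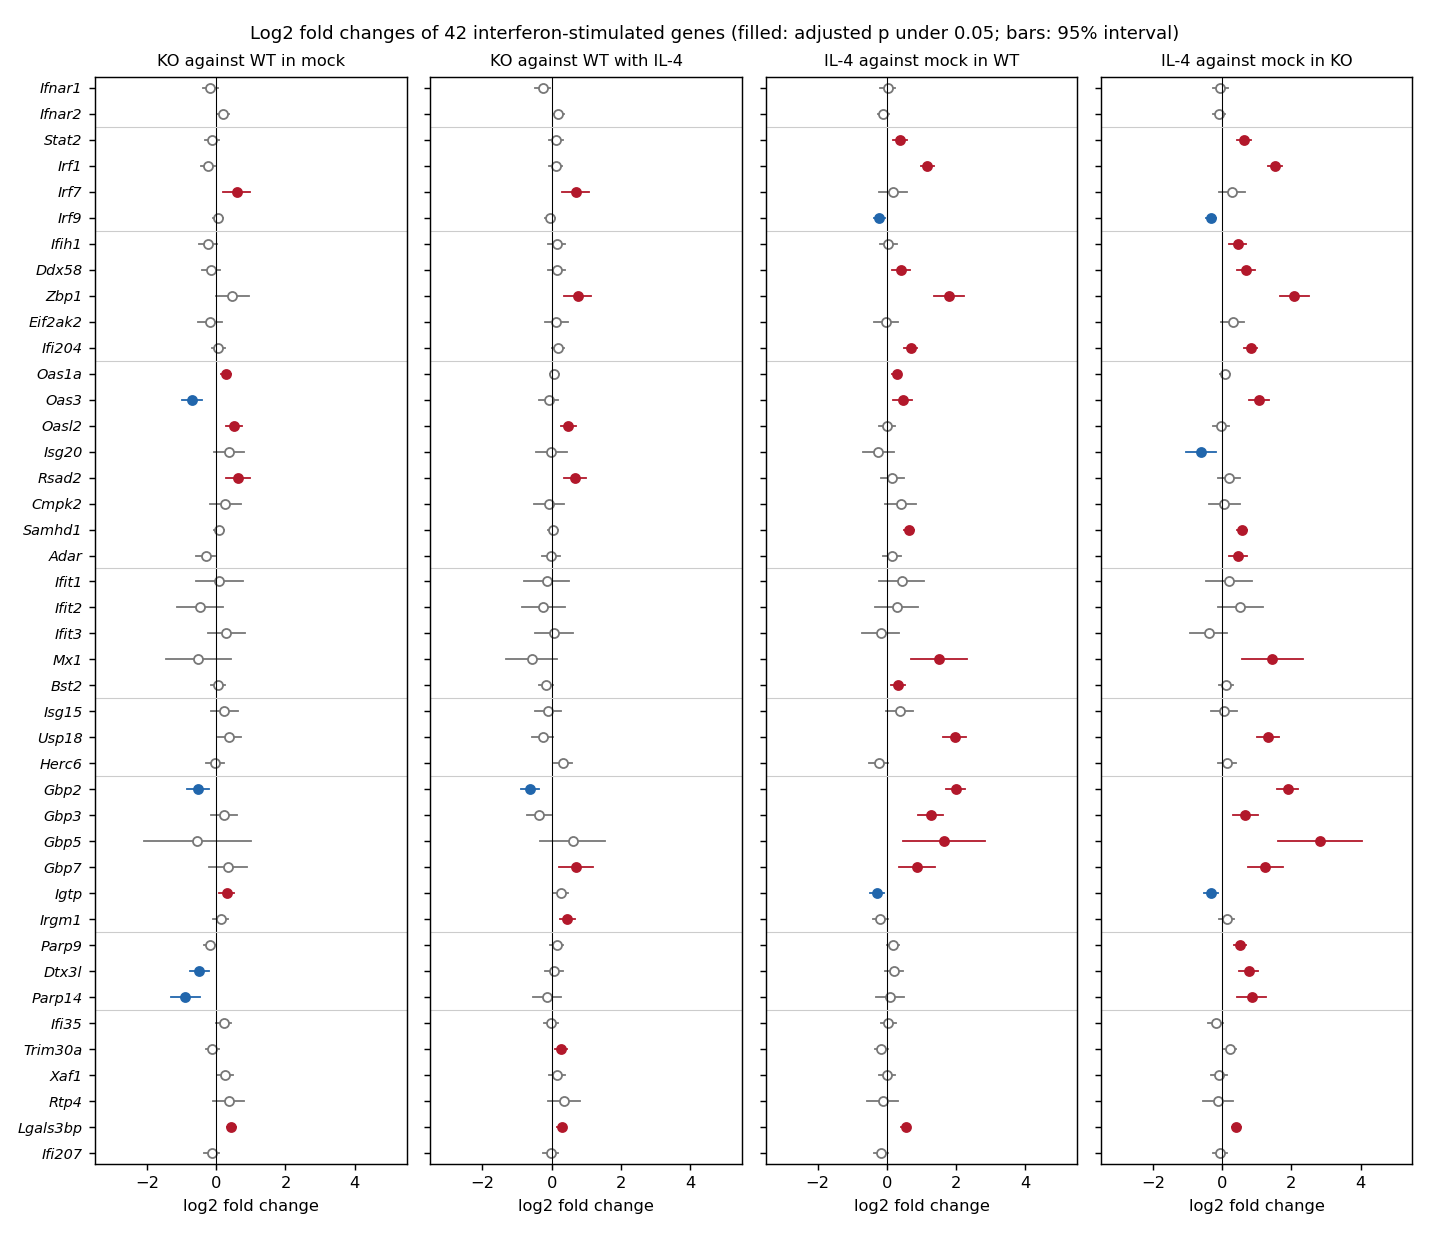
Log2 fold change of each of the 42 members, with its 95% interval, in the 4 comparisons (filled points have an adjusted p under 0.05), in blocks by role. IL-4 raised 16 members in WT and 19 in KO, against 13.6% and 16.0% of all genes, and the members split in direction between KO and WT.

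The interferon receptor chains were not called in any comparison of the reported fit. Ifnar1 stood at 182, 167 and 196 CPM in the WT mock libraries, 202, 152 and 203 in WT IL-4, 149.9, 167 and 166 in KO mock, and 142, 161 and 162 in KO IL-4. KO mock values lay below all WT mock values, and with IL-4 the genotypes overlapped. The log2 differences of -0.17 in mock (adjusted p = 0.21) and -0.26 with IL-4 (adjusted p = 0.10) did not pass. Ifnar2 stood at 157, 172 and 154 CPM in WT mock, 138, 160.4 and 152 in WT IL-4, 194, 166 and 190.2 in KO mock, and 181, 165 and 170.4 in KO IL-4. The KO level was above every WT level with IL-4 and overlapped WT in mock, with log2 fold changes of 0.19 (adjusted p = 0.078) in mock and 0.20 (adjusted p = 0.095) with IL-4. Ifnar1 and Ifnar2 thus lay on opposite sides of 0 in both comparisons of genotype, without a call in this fit. Some alternatives did call them. Ifnar1 was lower in KO with IL-4 without WT IL-4 library 2 (adjusted p = 0.0056) and with length offsets (0.0499). Ifnar2 was higher in KO in mock under alternatives that ran from 0.027 without both KO 2 libraries to 0.0499 with DESeq2.

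Of the 4 signal transducers and transcription factors, IL-4 raised Irf1 and Stat2 and lowered Irf9 in both genotypes, while Irf7 differed by genotype. Irf1 (ENSMUSG00000018899.16, chromosome 11, 53770014 to 53778374, plus strand, mm10), the factor with the gamma-activated site match printed above, stood at 56.0, 50.5 and 55.1 CPM in WT mock and 113, 119.8 and 132 in WT IL-4. In KO it went from 48.6, 43.1 and 44.5 to 151, 119 and 125 CPM. Every IL-4 library was above every mock library, a 2.25-fold rise in WT (log2 1.17, SE 0.09, adjusted p = 2.5e-07) and 2.90-fold in KO (log2 1.54, SE 0.09, adjusted p = 2.0e-08). In mock the 3 KO libraries were below the 3 WT libraries, which did not pass (log2 -0.25, SE 0.09, adjusted p = 0.052). Some alternatives called this difference, from adjusted p = 0.017 with library size alone to 0.045 with a filter of 1 CPM in 3 libraries.
Stat2, a transducer of the type I pathway, stood at 37.0, 33.1 and 39.3 CPM in WT mock and 52.1, 40.9 and 48.9 in WT IL-4, and at 33.0, 36.3 and 31.2 in KO mock and 53.8, 51.9 and 49.4 in KO IL-4. It rose in both genotypes with no overlap (log2 0.37, SE 0.10, adjusted p = 0.010 in WT, and 0.63, SE 0.10, adjusted p = 0.00023 in KO). Irf9, the DNA-binding subunit of the same complex, went the other way. Its WT values were 38.5, 39.1 and 38.0 CPM in mock and 33.6, 34.0 and 31.9 with IL-4, and its KO values were 41.4, 37.8 and 40.3 in mock and 33.0, 32.6 and 30.3 with IL-4. The groups did not overlap, and Irf9 fell by 0.21 in WT (SE 0.07, adjusted p = 0.034) and by 0.32 in KO (SE 0.07, adjusted p = 0.0033) on the log2 scale.
Irf7 (ENSMUSG00000025498.15, chromosome 7, 141262706 to 141266481, minus strand), which amplifies type I interferon production, stood at 5.35, 4.71 and 3.99 CPM in WT mock, 6.28, 5.55 and 4.02 in WT IL-4, 8.59, 6.41 and 6.18 in KO mock, and 10.1, 7.78 and 7.94 in KO IL-4. Each KO library was above each WT library of the same treatment, by 1.51-fold in mock (log2 0.59, SE 0.18, adjusted p = 0.023) and 1.62-fold with IL-4 (log2 0.69, SE 0.18, adjusted p = 0.014). The effect of IL-4 on Irf7 was not called (log2 0.18, adjusted p = 0.52 in WT, and 0.28, adjusted p = 0.25 in KO, where pairing the cultures gave 0.048). The mock call was lost without WT mock library 3 (adjusted p = 0.077) or KO mock library 1 (0.11), and the IL-4 call without KO IL-4 library 1 (0.061). Without the WT 3 and KO 1 libraries the Irf7 calls had adjusted p = 0.14 in mock and 0.066 with IL-4. The WT fall of Irf9 was lost without any 1 WT mock library, WT IL-4 library 1 or 3, or any 1 KO IL-4 library, and over all settings that lost it the adjusted p was 0.062 to 0.15. Exons of Irf7 overlap those of Phrf1 on the other strand, and reads there can be told apart only if the libraries were stranded, which is not named. Exons of Irf9 overlap those of Rnf31 on the same strand, and reads there cannot be told apart.

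Among the sensors of foreign nucleic acid, 3 of 5 rose with IL-4 in WT and 4 of 5 in KO, and none fell. Over all genes 13.6% rose in WT and 16.0% in KO, and so small a block was not tested as a set. Zbp1 (ENSMUSG00000027514.14, chromosome 2, 173206612 to 173218923, minus strand), a Z-form nucleic acid sensor that can start necroptosis, moved most. It stood at 2.44, 3.69 and 2.74 CPM in WT mock and 10.5, 9.89 and 10.3 in WT IL-4, and at 5.28, 3.43 and 3.56 in KO mock and 21.5, 17.5 and 13.1 in KO IL-4. IL-4 raised it 3.47-fold in WT (log2 1.80, SE 0.21, adjusted p = 1.2e-05) and 4.26-fold in KO (log2 2.09, SE 0.20, adjusted p = 2.0e-06), with no overlap. With IL-4 every KO library was above every WT library (log2 0.76, SE 0.18, adjusted p = 0.010), while in mock the genotypes overlapped (log2 0.46, adjusted p = 0.12). Without KO IL-4 library 1, the highest, the adjusted p with IL-4 was 0.052.
Ifi204, the PYHIN protein p204 that binds DNA, rose from 32.8 ± 3.06 to 52.8 ± 3.92 CPM in WT and from 34.0 ± 1.61 to 60.2 ± 3.25 in KO. Ddx58, which encodes RIG-I, rose by 0.41 (SE 0.12, adjusted p = 0.020) in WT and 0.70 (SE 0.12, adjusted p = 0.00050) in KO on the log2 scale, the WT call being lost without WT mock library 1 or 2 or WT IL-4 library 1 or 3, at adjusted p = 0.054 to 0.078. Ifih1, which encodes MDA5, rose in KO (log2 0.45, SE 0.12, adjusted p = 0.011) and stood at 0.05 in WT (adjusted p = 0.82); without the WT 3 and KO 1 libraries the KO rise had an adjusted p of 0.073. Eif2ak2, the kinase PKR, was not called in any comparison.

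Of the 8 effectors that act on RNA and nucleotides, 3 were higher and 1 lower in KO in mock, and 2 were higher and 0 lower with IL-4. Over all genes 15.7% were higher and 18.8% lower in mock, and 8.57% and 10.2% with IL-4, and this small block was not tested as a set. Oasl2 (ENSMUSG00000029561.17, chromosome 5, 114896936 to 114912234, plus strand), an oligoadenylate synthetase-like protein, had no called effect of IL-4. It stood at 28.4, 28.8 and 28.8 CPM in WT mock, 28.7, 27.7 and 29.2 in WT IL-4, 48.0, 34.3 and 39.9 in KO mock, and 44.4, 36.5 and 39.3 in KO IL-4. All 6 KO libraries were above all 6 WT libraries, by 1.42-fold in mock (log2 0.51, SE 0.11, adjusted p = 0.0026) and 1.40-fold with IL-4 (log2 0.49, SE 0.11, adjusted p = 0.0053), and the intervals of its IL-4 effect ran from -0.24 to 0.22 in WT and from -0.25 to 0.20 in KO.
Rsad2 (ENSMUSG00000020641.16, chromosome 12, 26442746 to 26456452, minus strand) encodes viperin, which makes a chain-terminating nucleotide. Its values were 4.26, 5.09 and 4.15 CPM in WT mock, 4.66, 4.66 and 5.77 in WT IL-4, 7.34, 6.02 and 7.51 in KO mock, and 9.52, 6.57 and 7.97 in KO IL-4. KO was above WT with no overlap in both treatments, by 1.54-fold in mock (log2 0.63, SE 0.16, adjusted p = 0.0071) and 1.59-fold with IL-4 (log2 0.67, SE 0.15, adjusted p = 0.0067). Without the WT 3 and KO 1 libraries the mock difference had an adjusted p of 0.056. Its neighbour Cmpk2, a mitochondrial nucleotide kinase, was not called, its mock difference being 0.26 on the log2 scale (SE 0.21, adjusted p = 0.36).
Oas3 (ENSMUSG00000032661.9, chromosome 5, 120753098 to 120777661, minus strand), an oligoadenylate synthetase that makes a second messenger on sensing double-stranded RNA, was called lower in KO in mock. It stood at 17.5, 13.9 and 14.6 CPM in WT mock, 24.1, 19.4 and 20.0 in WT IL-4, 8.82, 8.90 and 10.7 in KO mock, and 23.0, 19.5 and 17.3 in KO IL-4. The mock groups did not overlap (log2 -0.70, SE 0.13, adjusted p = 0.0014) and the IL-4 groups did (log2 -0.09, adjusted p = 0.70). IL-4 raised it in WT (log2 0.46, SE 0.13, adjusted p = 0.015) and in KO (log2 1.07, SE 0.13, adjusted p = 2.9e-05). The WT rise was lost without WT mock library 2 (adjusted p = 0.054) or WT IL-4 library 1 (0.065).
Oas1a, of the same enzyme family, stood at 29.1, 29.3 and 28.3 CPM in WT mock, 35.5, 34.7 and 35.0 in WT IL-4, 34.5, 34.9 and 35.4 in KO mock, and 38.5, 36.6 and 36.3 in KO IL-4. WT mock lay below both KO mock and WT IL-4 with no overlap, while KO mock and WT IL-4 overlapped. KO over WT was called in mock (log2 0.27, SE 0.06, adjusted p = 0.0051) and IL-4 over mock in WT (log2 0.28, SE 0.06, adjusted p = 0.0047). Reads shared with near-identical Oas1 copies make its level uncertain.
Samhd1, which removes deoxynucleotides, rose from 129.8 ± 9.01 to 200.4 ± 6.57 CPM in WT and from 138 ± 8.20 to 207 ± 6.65 in KO (adjusted p = 6.9e-06 and 1.4e-05). Adar, the RNA-editing enzyme, rose with IL-4 in KO (log2 0.46, SE 0.12, adjusted p = 0.012), a call lost without KO mock library 1 (adjusted p = 0.053) or KO IL-4 library 2 (0.057). Isg20, an RNA exonuclease, stood at 1.603, 1.97 and 1.92 CPM in WT mock, 1.42, 1.96 and 1.26 in WT IL-4, 2.36, 2.40 and 2.32 in KO mock, and 1.71, 1.29 and 1.65 in KO IL-4. It fell by 0.61 on the log2 scale with IL-4 in KO (SE 0.20, adjusted p = 0.034), which 9 alternatives lost at adjusted p = 0.051 to 0.20, among them those leaving out any 1 KO mock library or either of KO IL-4 libraries 2 and 3.

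The IFIT genes stayed low and were not called in any comparison of the reported fit. Ifit1, Ifit2 and Ifit3 encode proteins that bind viral RNA, and the response-element matches of Ifit1 and Ifit3 are printed above. Ifit1 stood at 0.905 ± 0.223 CPM in WT mock and 1.22 ± 0.304 in WT IL-4, Ifit2 at 2.14 ± 0.191 and 2.61 ± 0.823, and Ifit3 at 1.31 ± 0.131 and 1.15 ± 0.127. Their intervals were wide, from -0.23 to 1.09 for Ifit1 with IL-4 in WT on the log2 scale, so that a 2-fold rise of Ifit1 lay inside its interval.
Mx1 (ENSMUSG00000000386.16, chromosome 16, 97447035 to 97462907, minus strand), a GTPase against influenza virus, was as low but rose. It stood at 0.321, 0.541 and 0.399 CPM in WT mock, 1.45, 1.26 and 0.891 in WT IL-4, 0.492, 0.276 and 0.121 in KO mock, and 0.869, 0.931 and 0.621 in KO IL-4. No IL-4 library overlapped the mock libraries of its genotype, with a 2.85-fold rise in WT (log2 1.51, SE 0.38, adjusted p = 0.0078) and 2.73-fold in KO (log2 1.45, SE 0.41, adjusted p = 0.015) on 42 against 134 and 29 against 85 counts. The KO rise was lost without KO mock library 3 (adjusted p = 0.059), KO IL-4 library 2 (0.051) or both KO 2 libraries (0.11). Bst2 rose in WT (log2 0.33, SE 0.10, adjusted p = 0.018), a call lost without WT mock library 3 (adjusted p = 0.056) or WT IL-4 library 2 (0.069), and its KO value of 0.11 was not called.

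ISG15 and the enzyme that removes it were split. Isg15 (chromosome 4, 156199455 to 156200796, minus strand) is a ubiquitin-like modifier with 3 response-element matches in the run printed above. It stood at 2.69, 3.28 and 2.16 CPM in WT mock, 3.17, 3.75 and 3.59 in WT IL-4, 3.61, 2.73 and 3.17 in KO mock, and 3.82, 2.93 and 3.11 in KO IL-4. All groups overlapped, and the log2 effect of IL-4 was 0.37 in WT (interval -0.01 to 0.76, adjusted p = 0.15) and 0.05 in KO (interval -0.33 to 0.44, adjusted p = 0.86).
Usp18 (ENSMUSG00000030107.10, chromosome 6, 121245906 to 121270917, plus strand), which strips ISG15 from proteins and blocks IFNAR2 signalling, rose strongly. Its values were 7.02, 4.84 and 5.75 CPM in WT mock, 25.5, 22.7 and 20.5 in WT IL-4, 9.54, 6.82 and 6.57 in KO mock, and 18.2, 20.4 and 18.8 in KO IL-4. IL-4 raised it 3.90-fold in WT (log2 1.96, SE 0.15, adjusted p = 2.2e-07) and 2.51-fold in KO (log2 1.33, SE 0.15, adjusted p = 1.1e-05), with no overlap. Herc6, the mouse ligase for ISG15, was not called, with an IL-4 effect of -0.23 (adjusted p = 0.20) in WT.

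**Figure D3:**
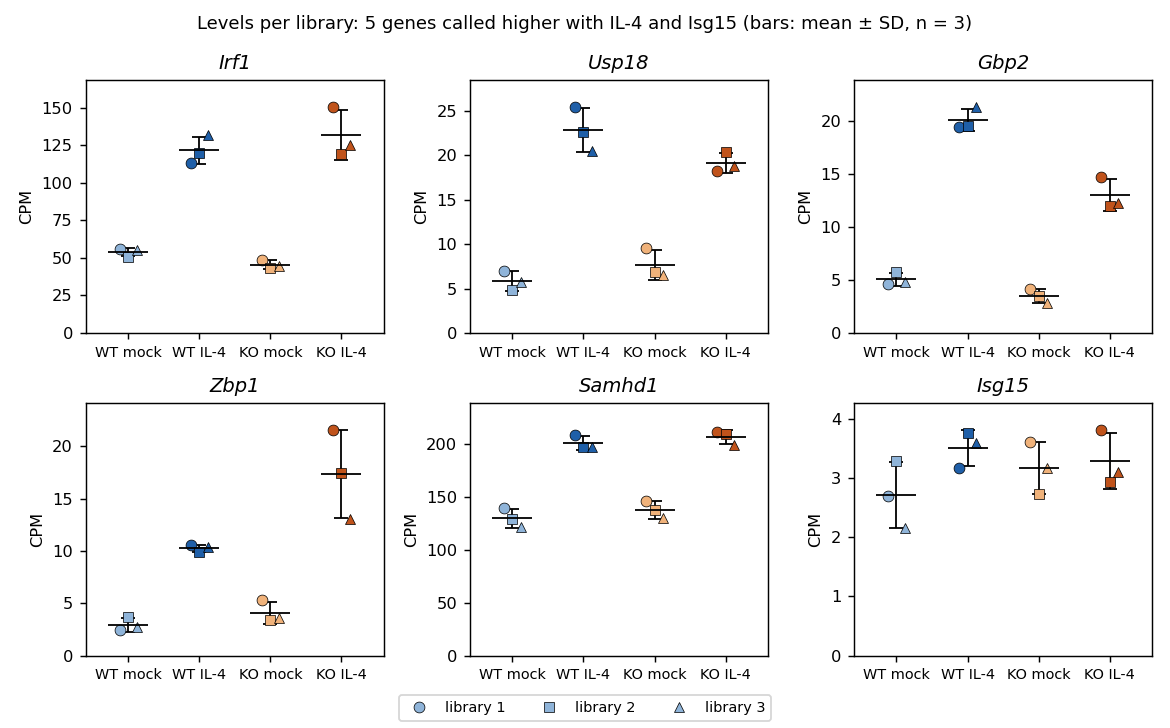
CPM in each of the 12 libraries for Irf1, Usp18, Gbp2, Zbp1, Samhd1 and Isg15, with the mean and SD of each group of 3. In the first 5 every IL-4 library lay above every mock library of its genotype, whereas the Isg15 groups overlapped between 2.16 and 3.82 CPM.

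Of the guanylate-binding proteins and immunity-related GTPases, which attack the vacuoles of intracellular pathogens, 4 of 6 measured rose with IL-4 and 1 fell in each genotype. Over all genes 13.6% rose and 13.0% fell in WT, and 16.0% and 14.2% in KO. The 4 Gbp genes lie side by side on chromosome 3, between 142493978 and 142638008. Gbp2 (ENSMUSG00000028270.12) stood at 4.62, 5.76 and 4.82 CPM in WT mock, 19.5, 19.5 and 21.3 in WT IL-4, 4.13, 3.51 and 2.86 in KO mock, and 14.8, 12.02 and 12.3 in KO IL-4. It was the member with the largest rise in WT, 3.97-fold (log2 1.99, SE 0.13, adjusted p = 4.8e-08), and rose 3.72-fold in KO (log2 1.90, SE 0.14, adjusted p = 1.3e-07). Its KO values lay under all WT values at each treatment, on the log2 scale at -0.53 for mock (SE 0.14, adjusted p = 0.011) and at -0.63 for IL-4 (SE 0.12, adjusted p = 0.0026). The mock difference was lost without WT mock library 2 (adjusted p = 0.055) or KO mock library 3 (0.0505).
Gbp3 stood at 3.14, 3.79 and 3.89 CPM in WT mock, 9.78, 7.40 and 8.81 in WT IL-4, 5.15, 3.43 and 4.22 in KO mock, and 7.85, 5.75 and 6.62 in KO IL-4. It rose in WT (log2 1.26, SE 0.17, adjusted p = 5.3e-05) and in KO (log2 0.66, SE 0.17, adjusted p = 0.0084), with no overlap. Gbp7 stood at 1.51, 1.56 and 2.29 CPM in WT mock, 2.67, 3.06 and 4.24 in WT IL-4, 1.48, 2.93 and 2.38 in KO mock, and 5.21, 5.56 and 5.40 in KO IL-4. Its IL-4 libraries were all above its mock libraries (log2 0.88, SE 0.25, adjusted p = 0.016 in WT, and 1.24, SE 0.24, adjusted p = 0.0011 in KO), and with IL-4 KO was above WT (log2 0.71, SE 0.23, adjusted p = 0.043). The WT rise of Gbp7 was lost without WT mock library 1 (adjusted p = 0.061), WT mock library 2 (0.058) or WT IL-4 library 3 (0.066), and the genotype difference without WT mock library 2, WT IL-4 library 1 or 2, KO mock library 3 or any 1 KO IL-4 library, at 0.051 to 0.17.
Gbp5 was the least expressed member, at 0.0962, 0.127 and 0.133 CPM in WT mock, 0.524, 0.348 and 0.276 in WT IL-4, 0.131, 0.0829 and 0.0301 in KO mock, and 0.931, 0.602 and 0.270 in KO IL-4. Its rises (log2 1.66, SE 0.55, adjusted p = 0.038 in WT, and 2.83, SE 0.57, adjusted p = 0.0017 in KO) rest on 12 against 43 and 8 against 62 counts, and the WT call was lost without any 1 WT mock library or WT IL-4 library 1 or 2, at 0.060 to 0.14. Near-identical Gbp copies on chromosome 3 can share reads, so these levels are uncertain where counting split them.
The immunity-related GTPases did not follow. Igtp stood at 16.8, 15.0 and 16.6 CPM in WT mock, 13.1, 13.2 and 13.5 in WT IL-4, 22.035, 18.8 and 18.6 in KO mock, and 17.6, 14.5 and 15.6 in KO IL-4. It fell with IL-4 in both genotypes with no overlap, by 0.28 in WT (SE 0.10, adjusted p = 0.043) and 0.32 in KO (SE 0.10, adjusted p = 0.022) on the log2 scale, and was higher in KO in mock (log2 0.30, SE 0.10, adjusted p = 0.028). Each of these 3 Igtp calls was lost under 5 to 10 alternatives, at adjusted p = 0.052 to 0.19. Single libraries that ended a call were WT mock 2 and KO mock 1 for the genotype difference, KO mock 1, KO IL-4 2 and KO IL-4 3 for the KO fall, and WT mock 1 and 3, all 3 WT IL-4 libraries, KO mock 2 and KO IL-4 2 and 3 for the WT fall. Exons of Igtp overlap those of Irgm2 on the same strand, and reads from the shared stretch cannot be told apart. Irgm1 stood at 16.7, 15.3 and 15.1 CPM in WT mock, 13.4, 12.7 and 15.3 in WT IL-4, 19.1, 16.1 and 16.2 in KO mock, and 20.4, 17.9 and 18.0 in KO IL-4. With IL-4 its KO libraries were all above its WT libraries (log2 0.45, SE 0.10, adjusted p = 0.0065), and in mock the genotypes overlapped (log2 0.12, adjusted p = 0.37).

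Of Parp14, Dtx3l and Parp9, neighbours on chromosome 16, the first 2 were lower in KO mock, and all 3 rose with IL-4 in KO. Over all genes 18.8% were lower in KO mock and 16.0% rose with IL-4 in KO. Parp14 (ENSMUSG00000034422.14, 35832874 to 35871544, minus strand) is a mono-ADP-ribosyltransferase first described as a cofactor of STAT6. It stood at 33.6, 26.0 and 27.8 CPM in WT mock, 36.8, 23.4 and 33.2 in WT IL-4, 10.5, 17.2 and 19.4 in KO mock, and 29.1, 26.6 and 29.6 in KO IL-4. All 3 KO mock libraries were below all others. The difference from WT in mock was -0.89 (SE 0.20, adjusted p = 0.0033), the largest of any called member between the genotypes, and with IL-4 it was -0.13 (adjusted p = 0.70). The IL-4 effect was 0.10 in WT (adjusted p = 0.77, not called), and IL-4 raised it by 0.85 in KO (SE 0.20, adjusted p = 0.0043).
Dtx3l, a ubiquitin ligase that pairs with PARP9, stood at 36.6, 39.5 and 39.4 CPM in WT mock, 47.9, 35.9 and 49.5 in WT IL-4, 22.4, 27.9 and 31.7 in KO mock, and 46.1, 46.4 and 46.7 in KO IL-4. KO mock libraries were again the lowest (log2 -0.49, SE 0.13, adjusted p = 0.0083), and IL-4 raised Dtx3l in KO (log2 0.76, SE 0.13, adjusted p = 0.00038). Parp9 rose in KO (log2 0.51, SE 0.08, adjusted p = 0.00036), and it stood -0.18 from WT in KO mock (adjusted p = 0.11). In WT the IL-4 effects were not called, at 0.21 (adjusted p = 0.26) for Dtx3l and 0.18 (adjusted p = 0.13) for Parp9. Without WT IL-4 library 2 both were called higher in WT, Dtx3l at 0.34 (adjusted p = 0.039) and Parp9 at 0.25 (adjusted p = 0.034). Without the WT 3 and KO 1 libraries, the mock difference of Dtx3l had an adjusted p of 0.096 and the KO rise of Parp14 one of 0.052. Dtx3l and Parp9 overlap on opposite strands, so some reads can be assigned to one of them only if the libraries were stranded, which is not named. Exons of Parp14 overlap those of Gm49730 on the same strand. Other members with a same-strand overlap include Gbp7 (Gm43802) and Ifnar2 (Gm21970).

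Among the other interferon-induced proteins, Lgals3bp (ENSMUSG00000033880.11, chromosome 11, 118392751 to 118402092, minus strand) was called in all 4 comparisons. It stood at 351, 371 and 369 CPM in WT mock, 512, 558 and 523 in WT IL-4, 511, 469.6 and 489 in KO mock, and 666, 639 and 648 in KO IL-4. The KO libraries were above the WT libraries of the same treatment (in mock log2 0.43, SE 0.06, adjusted p = 0.00013, and under IL-4 0.29, SE 0.06, adjusted p = 0.0029), and IL-4 added 0.55 in WT (adjusted p = 6.6e-06) and 0.41 in KO (adjusted p = 0.00011). Trim30a was higher in KO with IL-4 (log2 0.27, SE 0.09, adjusted p = 0.037), a call that 7 alternatives lost at adjusted p = 0.057 to 0.11, among them those without WT IL-4 library 1 or 2 or any KO IL-4 library. Ifi35, Xaf1, Rtp4 and Ifi207 were not called in any comparison of the reported fit. With these, 13 of the 42 members had no call there in any of the 4 comparisons or in their difference. Among them were Isg15, the 3 Ifit genes, both receptor chains, Eif2ak2, Cmpk2 and Herc6. The share of all genes without any call was not computed, so the 13 are not a result particular to the members.

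**Figure D4:**
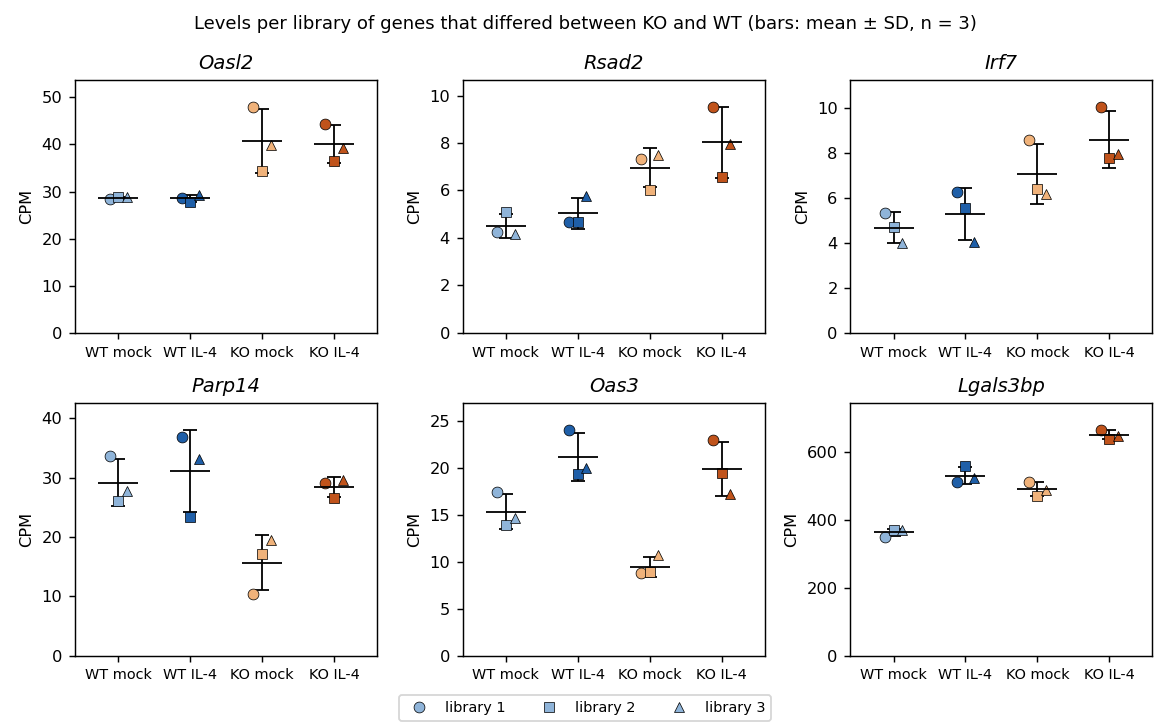
CPM in each of the 12 libraries for Oasl2, Rsad2, Irf7, Parp14, Oas3 and Lgals3bp, with the mean and SD of each group of 3. Oasl2, Rsad2, Irf7 and Lgals3bp were higher in KO in both treatments, whereas Parp14 and Oas3 were lower in KO in mock and overlapped WT with IL-4.

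Whether IL-4 acted differently in the 2 genotypes was tested as the IL-4 log2 fold change in KO minus that in WT. With edgeR 0 of 42 members were called, against 0.328% of all genes higher and 0.408% lower. An unadjusted p under 0.05 was found for 10 members. The share of all genes at that unadjusted p was not computed, so the 10 are not a result particular to the members. DESeq2 called Oas3 higher and Usp18 lower, against 2.31% and 3.10% of all genes. Within a genotype, same-numbered mock and IL-4 samples deviated together, and with the culture as a replicate block the interaction was called higher for Parp14 (0.80, adjusted p = 0.016), Oas3 (0.60, adjusted p = 0.022), Dtx3l (0.58, adjusted p = 0.022) and Irf1 (0.36, adjusted p = 0.024), and lower for Usp18 (-0.63, adjusted p = 0.034). That fit called 6.50% of all genes higher and 5.14% lower. In the unpaired fit these 5 interactions stood at 0.76 (SE 0.27), 0.61 (SE 0.19), 0.56 (SE 0.18), 0.36 (SE 0.13) and -0.64 (SE 0.21), with adjusted p = 0.12 to 0.17. The other members' interactions ran from -0.60 for Gbp3 to 1.17 for Gbp5.

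In mock, Spearman's rho between the log2 fold change and the gene length was -0.29 over all genes and -0.46 over the 42 members, a description across genes that share the same libraries. With IL-4 the KO against WT values were -0.05 over all genes and 0.21 over the members. For IL-4 against mock they were -0.10 and -0.03 in WT and 0.17 and 0.36 in KO. Parp14 (9306 bases), Oas3 (7069) and Dtx3l (5725) were lower in KO in mock, and Oas1a (1885) and Igtp (2022) were higher. Oasl2 (6374) and Gbp2 (2516) went the other way, the first higher and the second lower. With an offset for length in the fit, rho over all genes was 0.00790, Parp14 stood at -0.66 and Oas3 at -0.53, both still called, and the calls of Oas1a (adjusted p = 0.15) and Igtp (0.19) were lost. Samhd1 was then called higher (log2 0.33, adjusted p = 0.0079) and Irf1 lower (-0.26, adjusted p = 0.033). Rsad2, Irf7, Oasl2, Lgals3bp, Gbp2 and Dtx3l remained called in the same direction.

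**Figure D5:**
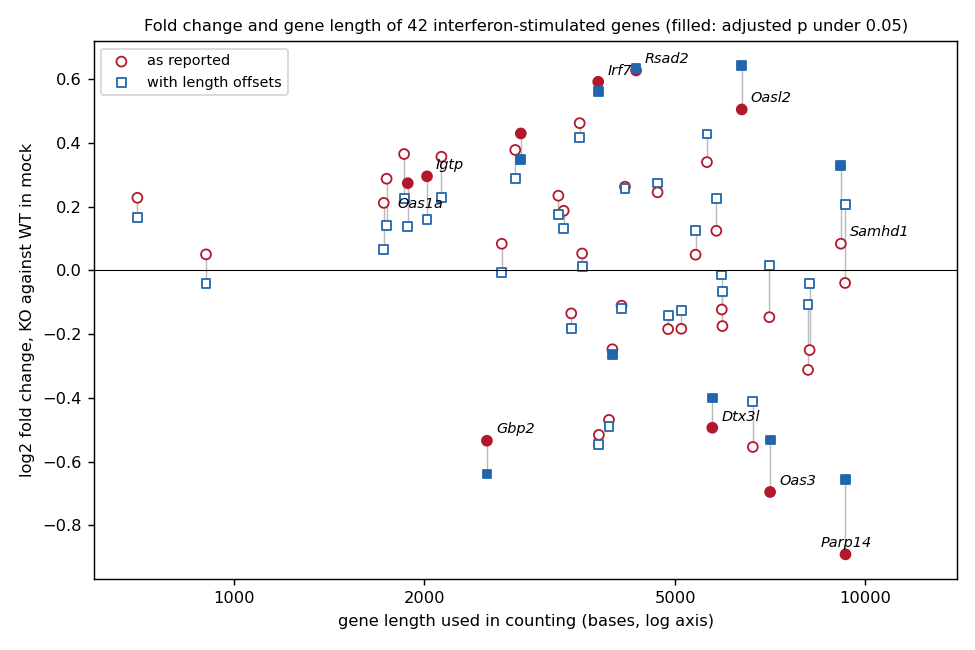
Log2 fold change of KO against WT in mock (vertical) against gene length in bases (log axis) for the 42 members, as reported (circles) and with length offsets (squares), filled where the adjusted p is under 0.05. Parp14 moved from -0.89 to -0.66 and Samhd1 from 0.08 to 0.33.

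RefSeq windows matched 35 of the 42 members. A response element was found in 19 of the 35 (54.3%) and in 3.99% of all 27025 genes with a window. A gamma-activated site was found in 14 (40.0%) and in 9.55% of all genes. A STAT6-type site (TTC and GAA with any 4 bases between), a motif chosen after the data were seen, was found in 7 (20.0%) and in 8.01%. These last 2 motifs read the same on both strands and differ by 1 base of spacing. Of the 19 members with a response element, 9 rose with IL-4 in WT and 8 in KO, and of the 16 without, 3 rose in WT and 5 in KO. With a gamma-activated site 6 of 14 rose in WT and 5 in KO, and without it 6 and 8 of 21. With a STAT6-type site 3 of 7 rose in each genotype, and without it 9 of 28 in WT and 10 in KO. Over all genes 13.6% rose in WT and 16.0% in KO. Whether a motif bears on the rise was not tested. Of the 7 members with no window, 4 rose in WT and 6 in KO. A match is only a match of letters.

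Further genes of the pathway were counted from 4 lists. Over all genes, 13.6% rose and 13.0% fell with IL-4 in WT, and 16.0% and 14.2% in KO. Between KO and WT, 15.7% of all genes were higher and 18.8% lower in mock, and 8.57% and 10.2% with IL-4. Several shares below were near or under these. The 13 interferon ligand genes listed were not analysed here. Of 17 genes for receptors and signalling outside the members, 7 rose and 2 fell with IL-4 in WT (41.2% and 11.8%). In KO 10 rose and 1 fell (58.8% and 5.88%). The inhibitor Socs1 rose from 1.15 ± 0.276 to 41.9 ± 8.43 CPM in WT (log2 5.17, SE 0.18) and from 2.38 ± 0.289 to 42.02 ± 3.77 in KO (log2 4.15, SE 0.17). Irf4, a factor of the IL-4 program, rose by 4.84 in WT and 5.23 in KO on the log2 scale, and the kinase Jak2 by 1.46 and 1.76. Between the genotypes 2 of the 17 were higher and 5 lower in KO in mock (11.8% and 29.4%). With IL-4, 2 were higher and 2 lower (11.8% each), where Irf4 stood at -1.59 (SE 0.19) and Ifngr1 was higher by 0.37 (SE 0.06).
Of 21 measured genes of nucleic acid sensing, 5 rose and 2 fell with IL-4 in WT (23.8% and 9.52%). In KO 3 rose and 2 fell (14.3% and 9.52%). In mock 3 were higher and 7 lower in KO (14.3% and 33.3%), the sensor Tlr7 among the lower (-0.69, SE 0.11). With IL-4 3 were higher and 4 lower (14.3% and 19%).
Of 68 entries for other interferon-stimulated genes, 13 rose and 7 fell with IL-4 in WT (19.1% and 10.3%). In KO 26 rose and 5 fell (38.2% and 7.35%). Tor3a rose by 1.02 and 1.04, Cd274 (PD-L1) by 1.19 and 1.56, and Ly6e by 1.30 and 0.95 on the log2 scale in WT and KO. In mock 7 were higher and 14 lower in KO (10.3% and 20.6%). Slfn9 differed by -1.55 (SE 0.22) and Ifi27l2a by -1.33 (SE 0.20) on the log2 scale. With IL-4 7 were higher and 6 lower in KO (10.3% and 8.82%), among them Ifi209 (0.93, SE 0.12) and Cd274 (0.94, SE 0.12).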

How the data were processed

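RNA-seq libraries of 12 mouse macrophage cultures were analysed, 3 in each of 4 groups. The submitters' processing notes name mm10 as the build, and STAR 2.7.2b, Subread 1.6.5 with featureCounts, edgeR and bcl2fastq. Library strandedness and the handling of reads with several matches are not named there. The deposited table holds raw counts per gene, from which all values here were computed. The authors also deposited log2 CPM, log2 RPKM and log2 fold changes, and p-values with FDR from their edgeR comparisons, which were used here only for checking. At an FDR under 0.05 their KO against WT comparison in mock held 6 members higher and 6 lower, where the fit here called 6 and 4. The counts of members called in the other comparisons were the same.

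The counts were normalised by TMM and fitted with edgeR 4.0.16 in R 4.3.3 (quasi-likelihood test, 4 groups, residual df 8), with Benjamini-Hochberg adjustment over 13715 genes. The lowest gene total was 50, and filterByExpr removed no gene. Values in every library are given, per comparison, for up to 6 called members with the largest rise and 6 with the largest fall, and always for Ifnar1, Ifnar2, Stat2, Irf1, Irf7, Irf9, Isg15 and Usp18. From other lists up to 6 called genes per comparison with the smallest adjusted p could be named, and always Stk11, Lyz2 and Arg1. Some results of these lists are not reported here. Members and lists were chosen with earlier results of these data known. Mock and IL-4 cultures of one number within a genotype were treated as paired in an alternative, since their deviations from the group means correlated at 0.229 to 0.579 over 8126 genes. Other alternatives were DESeq2 1.42.0, other size factors, filters, length offsets (lowess span 0.3) and leaving out libraries. The tests were tried on simulated data.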

Additional observations from a re-analysis of the deposited data

Results flagged for a closer look

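Among the genes of the further lists, edgeR's interaction test called 2, both outside the 42 members. They were 1 of 17 for receptors and signalling and 1 of 21 for nucleic acid sensing. Of the 68 entries for other interferon-stimulated genes, 0 were called. Over all genes the test called 0.328% higher and 0.408% lower. Ifngr1, a chain of the interferon gamma receptor, stood at 241, 245 and 242 CPM in WT mock, 266, 272 and 292 in WT IL-4, 243, 223 and 222 in KO mock, and 358, 370.4 and 345 in KO IL-4. The log2 IL-4 effect was larger in KO by 0.45 (SE 0.086, adjusted p = 0.036). The adjusted p was 0.031 without WT IL-4 library 3 and 0.054 to 0.11 without any other 1 library, and 0.0039 with the culture as a block.

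Tlr7, a sensor of single-stranded RNA, stood at 90.5, 86.1 and 85.9 CPM in WT mock, 50.1, 38.8 and 57.3 in WT IL-4, 50.5, 53.9 and 57.9 in KO mock, and 50.9, 52.5 and 59.3 in KO IL-4. The difference of the IL-4 effects was 0.85 (SE 0.16, adjusted p = 0.036): Tlr7 fell in WT and was not called in KO. The adjusted p was 0.026 without WT IL-4 library 2, 0.020 without WT IL-4 library 3 and 0.052 to 0.11 without any other 1 library, and 0.0013 with the culture as a block.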

How the results depend on the processing

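Of the 59 calls of members over the 4 comparisons, 36 kept their call under every alternative in which the gene was tested. The filter of 1 CPM in 3 libraries removed Mx1 and Gbp5, whose calls thus met 20 alternatives in place of 21. The WT rise of Mx1 and the KO rise of Gbp5 are among the 36. Alternatives also added calls that the reported fit did not make. Among these were Irf1, Ifnar2 and Usp18 between the genotypes in mock, and Ifnar1, Herc6 and Rtp4 between them with IL-4. Trim30a and Ifit3 with IL-4 in KO, and Cmpk2, Dtx3l and Parp9 with IL-4 in WT, were others. Counts that moved by over 1.5 times were these. For KO against WT in mock, 7 members were lower with library size alone (16.7%, against 21.6% of all genes). For KO against WT with IL-4, 2 were lower with length offsets (4.76%, against 11% of all genes). Leaving out 1 library gave 4 to 9 higher (9.52% to 21.4%, against 5.65% to 9.22% of all genes). It gave 1 to 2 lower (2.38% to 4.76%, against 6.44% to 10.8%). The 4 higher came without KO IL-4 library 1 (9.52%, against 6.96%). For IL-4 in WT, 0 members were lower without both KO 2 libraries or without the WT 3 and KO 1 libraries, 1 with length offsets, and 0 to 2 on leaving out one library. For IL-4 in KO, 1 was lower under each of those 3 settings, and 1 to 3 on leaving out one library. For the interaction, DESeq2 called 1 higher and 1 lower, against 2.31% and 3.10% of all genes. The culture as replicate block called 4 higher and 1 lower, against 6.50% and 5.14%. With the block, IL-4 raised 16 and lowered 2 members in WT and raised 20 and lowered 3 in KO. For the counts of IL-4 against mock in this paragraph the shares of all genes are not given here. Those counts are therefore not results particular to the members. Across genotypes same-numbered libraries correlated at -0.319 to 0.175 and share only a number. The setting without the WT 3 and KO 1 libraries was chosen after seeing the data. Fits without a library have fewer residual degrees of freedom, and otherwise the cause was not tested. Members under 1 CPM, such as Gbp5 and Mx1, rest on few counts.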

Other observations

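Among interferon-stimulated genes outside the members, Ifi44 stood at 2.98 CPM in KO mock library 3 and 3.32 CPM in KO IL-4 library 3, and at 0.372 CPM or less in the other 10 libraries. Trim12a stood at 0 and 0 CPM in the WT 3 libraries and at 0.0328 and 0 in the KO 1 libraries (mock and IL-4), and at 3.20 CPM or more in the other 8. Both genes were chosen after their values were seen.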
